A study of Mus musculus with 18 samples.

Results

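Genes whose products assemble the mitotic spindle or bind microtubules were followed in proliferating mouse satellite cells in culture, with and without deletion of Hoxa10. They are Tpx2, Hmmr, Nusap1, Dlgap5, Numa1, Ckap5, Tacc3, Ckap2, Ckap2l and Stmn1, taken by symbol, and all 10 were found among the 50689 features of the deposited count table. Satellite cells are the stem cells of skeletal muscle, and these were grown from tibialis anterior muscle of C57BL6 mice. The 9 control libraries carry Hoxa10f/f, in which Cre can remove the floxed Hoxa10. The 9 scKO libraries carry Pax7-CreERT2/+;Hoxa10f/f, in which Pax7, a satellite cell gene, drives a Cre that tamoxifen activates, and they received 4-hydroxy tamoxifen at 1 µM for 2 days. The labels give this treatment for the scKO group only, so the effects of the deletion, of Cre and of the drug cannot be told apart. The labels name neither animals nor cultures, so p-values measure only the spread between these samples, which may be technical.

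A dividing cell turns its microtubules into a bipolar spindle. Around the chromosomes the small GTPase Ran, in its GTP form, releases spindle assembly factors such as Tpx2, Hmmr, Nusap1, Dlgap5 and Numa1 from importins, and these nucleate, bundle or focus microtubules. Ckap5 lengthens microtubules at their growing ends and is brought to the spindle with Tacc3, while Stmn1 (stathmin) binds tubulin dimers and favours shrinkage. Many of these transcripts rise in G2 and M phase, when MuvB complexes with B-Myb or FoxM1 act on promoters that hold a CHR element (cell cycle genes homology region), often beside CCAAT boxes bound by NF-Y. Satellite cells divide in growth medium before they differentiate, and leave the cell cycle when they do.

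The promoters are shown because most of these genes were lower in deep scKO libraries, as given below. The named motifs are also known from mitotic genes, and whether they go with the changes was not tested. RefSeq promoter windows on GRCm38.p6, from 250 bases before to 50 bases after the start of a gene, were matched for 7 of the 10 genes, all but Tpx2, Dlgap5 and Stmn1. Of the 7 windows, 4 held the CHR letters TTTGAA on either strand and the same 4 held CCAAT on either strand. TTTGAA was in 17.9% of all 32851 RefSeq windows of this length, CCAAT in 37.4% and both CCAAT and a CHR form in 7.52%. Among windows of genes tested in deep libraries these shares were 11.9%, 37.6% and 5.53%, and among those of genes lower in scKO there 18.6%, 42.3% and 11.7%. The rarer CHR form TTCGAA, present in 1.56% of all windows, was in none of the 7. The E2F letters TTTGGCGC, TTTCGCGC, TTTCCCGC and TTTGCCGC were in none of the 7 either. At least 1 of these E2F forms was in 2.26% of all windows, in 3.88% of those of genes tested in deep libraries and in 8.97% of those of genes lower in deep scKO. No CHR match overlapped a CCAAT match in these windows, and a match is a description of letters, not of binding.

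The 150 bases before the start are printed 5′ to 3′ on the strand of each gene for the 4 genes whose windows hold these motifs, with CHR (TTTGAA or its reverse complement TTCAAA) and CCAAT (or ATTGG) in capitals. Ckap2l lies at chr2:129297213-129297362 on the minus strand, Ckap2 at chr8:22185820-22185969 on the minus strand, Hmmr at chr11:40733438-40733587 on the minus strand and Ckap5 at chr2:91526612-91526761 on the plus strand.
Ckap2l: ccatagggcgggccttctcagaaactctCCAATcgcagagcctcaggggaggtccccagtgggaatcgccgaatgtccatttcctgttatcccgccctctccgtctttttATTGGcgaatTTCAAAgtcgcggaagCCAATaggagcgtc
Ckap2: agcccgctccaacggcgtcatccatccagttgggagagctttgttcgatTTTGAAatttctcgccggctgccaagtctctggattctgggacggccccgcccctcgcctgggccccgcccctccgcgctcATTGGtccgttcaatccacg
Hmmr: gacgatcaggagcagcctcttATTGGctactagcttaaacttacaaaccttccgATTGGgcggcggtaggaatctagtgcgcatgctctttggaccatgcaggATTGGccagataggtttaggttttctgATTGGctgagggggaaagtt
Ckap5: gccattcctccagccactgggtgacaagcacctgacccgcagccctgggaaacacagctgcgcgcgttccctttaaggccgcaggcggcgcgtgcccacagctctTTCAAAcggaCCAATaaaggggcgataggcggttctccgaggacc

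Hmmr carried 5 CCAAT boxes, the one beyond the printed stretch at -172 to -168, and its CHR letters lay just after the start at 9 to 14. Ckap2l carried 3 CCAAT boxes and 2 CHR matches, at -30 to -25 and at 42 to 47, counted from the start with no position 0. Ckap2 held 1 of each, and Ckap5 held 1 CHR match and 2 CCAAT boxes, one of them across the start. The windows of Nusap1, Tacc3 and Numa1 held none of the letters searched, and the RefSeq start of Numa1 lies inside the longer GENCODE gene. The map of motif positions shows the same 7 windows side by side.

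**Figure D1:**
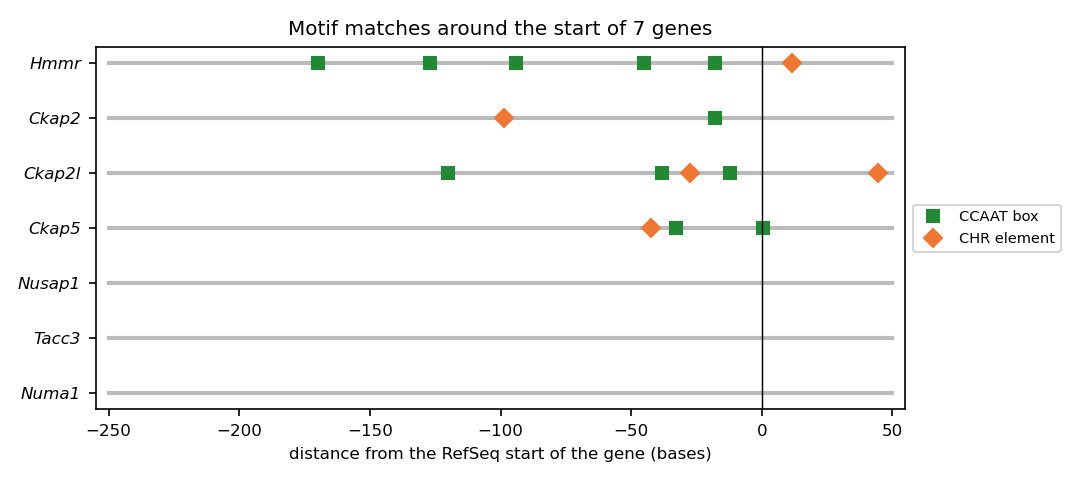
Positions of CCAAT boxes (squares) and CHR elements (diamonds) on a horizontal axis of bases from the RefSeq start, 1 line per gene for the 7 genes with a promoter window. Matches sit on Hmmr, Ckap2, Ckap2l and Ckap5, and the lines of Nusap1, Tacc3 and Numa1 are empty.

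The counts are of unique molecular identifiers (UMIs), tags that mark single molecules, and the libraries fall into 2 classes of depth. Control 1 and 2 and scKO 6, 7 and 9 held 4346150 to 5986128 counts each and are called deep; the other 7 control and 6 scKO libraries held 420197 to 968559 and are called shallow. The line between them was 2000000 counts. Control 7, 8 and 9 and scKO 1, all shallow, were known from earlier results of these data to stand apart, and results that rest on them are given with and without them. Levels are in CPM, counts scaled to a common library total with TMM factors, and changes are log2 fold changes of scKO against control. Hoxa10 itself checks the labels: it ranged from 15.3 to 66.4 CPM in shallow controls and from 1.94 to 4.94 CPM, or 1 to 3 counts, in shallow scKO, and in deep libraries from 38.8 to 41 CPM in control and from 7.03 to 10.6 CPM in scKO. All 8 listed markers of satellite cells and myoblasts had counts, at a summed 2799.83 to 3570.6 CPM in deep and 8200 to 12363 CPM in shallow libraries. Summed leukocyte markers stayed between 0 and 8.23 CPM and fat cell markers between 0 and 4.45 CPM, with Plin1 at 0 in every library. Markers of fibro-adipogenic cells (5 of 5 with counts) summed to 38.8 to 137.7 CPM, endothelial markers (5 of 5) to 5.98 to 55.6 CPM, pericyte and smooth muscle markers (5 of 5) to 59.8 to 233.6 CPM, Schwann cell markers (5 of 5) to 16.4 to 155.8 CPM and tendon markers (3 of 3) to 136.6 to 533.6 CPM. In deep libraries the summed pericyte, Schwann, fibro-adipogenic and fat lists were higher in every scKO than in every control library. The pericyte list held 205.6 to 212.4 CPM in control and 224.7 to 233.6 CPM in scKO. The fibro-adipogenic ranges nearly touched, at 42.2 to 50.10 CPM in control and 50.125 to 58.4 CPM in scKO. In shallow libraries the groups overlapped for these 4 lists. The Schwann list held 38.4 to 155.8 CPM in shallow control and 16.4 to 87.2 CPM in shallow scKO. The fibro-adipogenic list held 63.9 to 137.7 and 38.8 to 93.8 CPM, and the pericyte list 59.8 to 164.3 and 73.2 to 172.4 CPM. The fat list held 0 to 1.84 CPM in shallow control and 0 CPM in every shallow scKO library. These 4 lists were grouped for their higher sums in deep libraries, and 7.31% of all genes tested in deep libraries rose. In the endothelial, leukocyte and tendon lists 0 genes were called there, and 3 of 3, 1 of 2 and 0 of 1 tested had values below 0. Of 13 genes of the 4 lists with higher sums tested in deep libraries 4 rose and 0 fell, and 3 had values below 0 (Cspg4 -0.57, Rgs5 -0.14 and Mbp -0.37). The 4, named like these 3 after their values were seen, were Myh11, Abcc9, Sox10 and Fabp4; Sox10 had -1.35 in shallow libraries (edgeR adjusted p = 0.8). The part of such cells in the results was not tested.

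In the deep libraries all 10 genes had a lower fitted level in scKO, and 8 of the 10 fell past the threshold. The fitted levels in scKO were 0.445 to 0.94 times those in control, with a median log2 fold change of -0.61. The background in this comparison was 7.03% of 13136 genes called lower by edgeR and 7.31% called higher, and 50.2% of genes had a log2 fold change below 0, with a median of -0.00 over all genes. Dlgap5, Nusap1, Ckap2l, Tpx2, Hmmr, Stmn1, Ckap2 and Tacc3 fell, in order of size, and Ckap5 and Numa1 were the 2 that did not pass. For 9 of the 10 genes every deep scKO library lay below both deep controls, against 20.9% of all genes tested, and Numa1 was the gene that overlapped. Leaving out scKO 6, 7 or 9 left 7 of the 10 called, beside 761 of 12982, 474 of 12848 and 674 of 12974 genes called lower. Without any 1 deep library the log2 fold changes of the 10 genes stayed below 0 (-0.14 to -0.02 for Numa1). In bulk RNA, fewer dividing cells and less transcript per cell cannot be told apart.

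**Figure D2:**
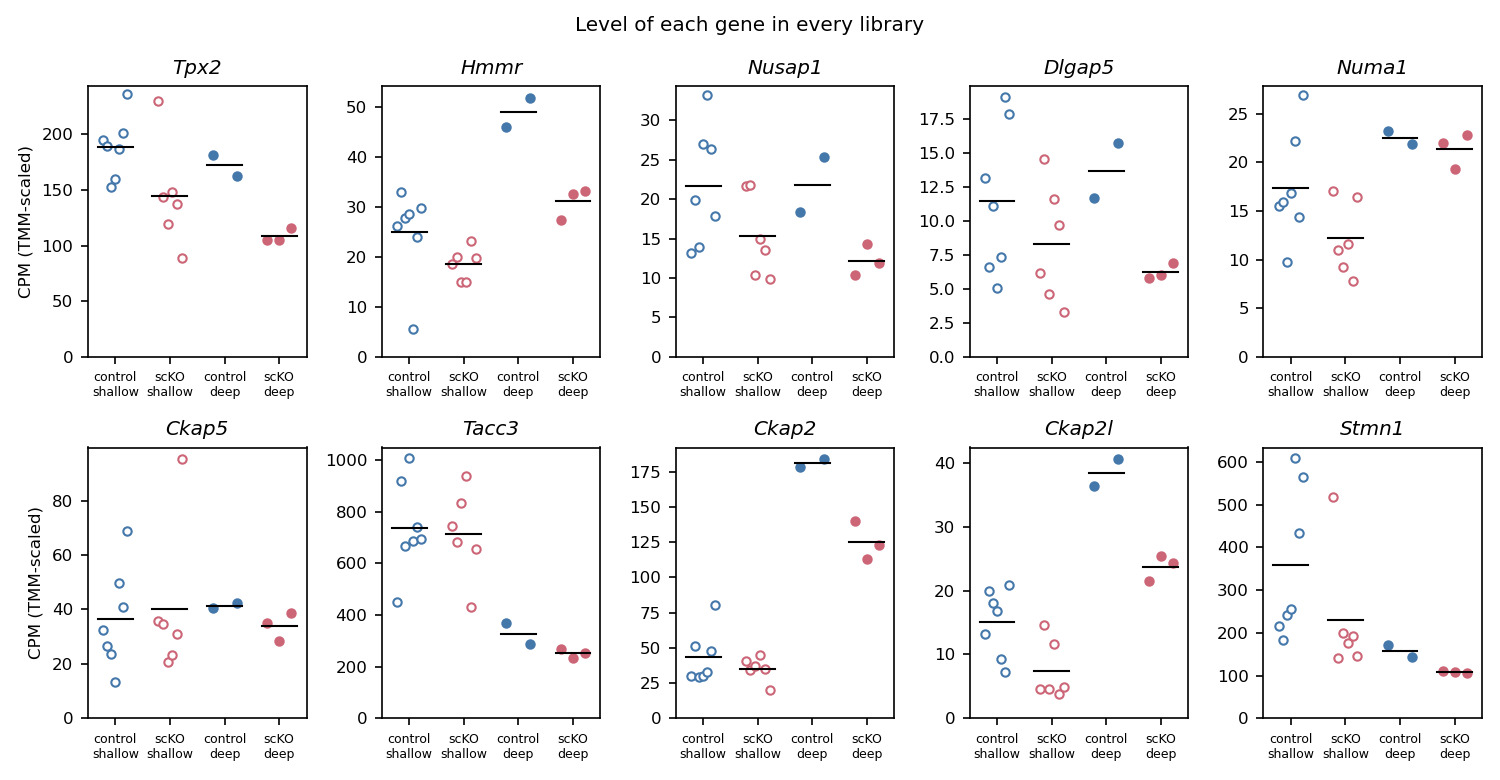
CPM (linear axis from 0) of each of the 10 genes in every library, as open points for shallow and filled points for deep libraries, with control in blue and scKO in red and a bar at the mean of each group. In the deep libraries the red points lie below the blue ones for every gene but Numa1, while the shallow groups overlap for all 10.

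Tpx2, which activates the kinase Aurora A and starts microtubule growth near chromosomes, stood at 181.7 and 162.6 CPM in the deep controls and at 104.6, 104.8 and 115.4 CPM in the deep scKO libraries. All 3 scKO values were lower than both controls. Its log2 fold change was -0.68 (SE 0.09, adjusted p = 0.000595 by edgeR). In shallow libraries it ran from 152.7 through a median of 189.4 to 236 CPM in control and from 88.8 through 140.8 to 229.6 CPM in scKO. There 5 of 6 scKO libraries lay below every control and scKO 1 lay among the highest, with a log2 fold change of -0.39 (SE 0.19, adjusted p = 0.81 by edgeR). Without the 4 libraries that stood apart, scKO 1 among them, the other shallow controls held 152.7 to 194.9 CPM and the other scKO libraries 88.8 to 148.1 CPM. These ranges did not overlap, but the share of all genes without overlap in this split was not computed. The shallow change without the 4 was -0.46 and still gave edgeR adjusted p = 0.46.

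Hmmr, the hyaluronan-mediated motility receptor, which acts at spindle poles, was at 46 and 51.9 CPM in deep controls and at 27.5, 32.7 and 33.2 CPM in deep scKO. The groups did not overlap, and the log2 fold change was -0.67 (SE 0.13, adjusted p = 0.00381 by edgeR). In shallow libraries control ran from 5.53 through 27.8 to 33.1 CPM and scKO from 15 through 19.2 to 23.3 CPM. Only control 7, with 3 Hmmr counts, fell below the scKO range; the next lowest control was at 24 CPM. The shallow log2 fold change was -0.46 (SE 0.28, adjusted p = 0.822 by edgeR), and -0.66 (SE 0.25, adjusted p = 0.488 by edgeR) without the 4 libraries.

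Nusap1, which bundles microtubules close to chromatin, stood at 18.4 and 25.3 CPM in deep controls and at 10.3, 14.3 and 11.9 CPM in scKO 6, 7 and 9. All scKO values were lower, though the 2 controls differed from each other by more CPM than the scKO libraries did. The log2 fold change was -0.87 (SE 0.19, adjusted p = 0.0077 by edgeR), and without control 2 it was -0.61 (edgeR adjusted p = 0.0892), so the call was lost. Shallow controls ran from 13.2 through 19.9 to 33.2 CPM and shallow scKO from 9.87 through 14.3 to 21.9 CPM, on 6 to 18 counts a library. These overlapped (log2 fold change -0.48, SE 0.29; edgeR adjusted p = 0.822). Exons of Nusap1 overlap those of Oip5 on the other strand, which held 137 counts over all libraries, and whether counting used strand is not stated.

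Dlgap5 (HURP), which stabilises the fibres that tie kinetochores to poles, had the lowest fold change of the 10. It was at 11.7 and 15.7 CPM in deep controls and at 5.81, 6.02 and 6.88 CPM in deep scKO. Every scKO library lay at about the same level, below both controls, and the log2 fold change was -1.17 (SE 0.20, adjusted p = 0.00242 by edgeR). The gene did not pass the count filter in the shallow libraries or over all 18, where a shallow control held 3 to 11 counts and a shallow scKO library 2 to 8. Its shallow levels ran from 5.05 through 11.1 to 19.2 CPM in control and from 3.29 through 7.95 to 14.6 CPM in scKO. The lowest of these are near the floor, taken as 3 counts. Before TMM scaling 3 counts are worth 3.1 to 7.14 CPM in shallow libraries. On the TMM scale of the levels, 3 Dlgap5 counts in control 6 were 5.05 CPM.

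Numa1, which gathers microtubule ends at the poles with dynein, differed least in the deep libraries. It stood at 23.2 and 21.9 CPM in control and at 21.9, 19.4 and 22.8 CPM in scKO. The groups overlapped, and the log2 fold change of -0.09 had a 95% interval from -0.40 to 0.22 (SE 0.14, adjusted p = 0.737 by edgeR). Shallow libraries held 6 to 13 counts in control and 4 to 11 in scKO, and the gene did not pass the filter there. Exons of Numa1 overlap those of Il18bp, which held 211 counts over all libraries.

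Ckap5 (chTOG), the polymerase that adds tubulin at growing ends, was at 40.6 and 42.2 CPM in deep controls and at 35, 28.5 and 38.8 CPM in deep scKO. The scKO values were all lower but near the controls, and the log2 fold change of -0.30 (95% interval -0.60 to -0.0016; SE 0.14) did not pass (edgeR adjusted p = 0.167). In shallow libraries the order was not kept: control ran from 13.5 through 32.3 to 68.7 CPM and scKO from 20.8 through 32.8 to 95.4 CPM. The highest value belonged to scKO 8, with 58 counts, and the next scKO library was at 35.7 CPM. The shallow log2 fold change was 0.19 (SE 0.38, adjusted p = 0.935 by edgeR) with scKO 8 and -0.27 (SE 0.32, adjusted p = 0.992 by edgeR) without it, so its sign in shallow libraries rests on that library. Without the 4 libraries that stood apart, which held 35.7 to 68.7 CPM, it was 0.72 (SE 0.44, adjusted p = 0.673 by edgeR).

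Tacc3, the partner of Ckap5 on the spindle, was at 367.2 and 288 CPM in deep controls and at 267.5, 234.9 and 253.4 CPM in deep scKO. The scKO values lay below both controls, but control 2 was nearer to scKO than to control 1. The log2 fold change was -0.39 (SE 0.12, adjusted p = 0.0407 by edgeR), and the call was lost without control 1 (-0.22, edgeR adjusted p = 0.169) and without scKO 6, 7 or 9 (edgeR adjusted p = 0.069, 0.187 and 0.111). Its deep counts of 1731 to 2307 were 42.3% to 56.3% of the highest count in the whole table, a ceiling at which every available tag would be in use; the tag length is not given in the sources used here. When counts were corrected for molecules that share a tag under that ceiling, 2307 became 3393 and the deep log2 fold change became -0.50. In shallow libraries, with control from 448.4 through 693.1 to 1009 CPM and scKO from 430.1 through 712.4 to 936.5 CPM, the groups covered the same range (log2 fold change -0.06, SE 0.19; 95% interval -0.45 to 0.34; edgeR adjusted p = 0.963). Exons of Tacc3 overlap those of Tmem129, which held 347 counts over all libraries.

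Ckap2 and Ckap2l, related cytoskeleton-associated proteins of the mitotic spindle, fell side by side in the deep libraries. Ckap2 was at 178.3 and 183.9 CPM in deep controls and at 139.9, 112.8 and 123 CPM in scKO 6, 7 and 9. The groups were well apart (log2 fold change -0.55, SE 0.10; edgeR adjusted p = 0.00284). Ckap2l was at 36.4 and 40.6 CPM in deep controls and at 21.5, 25.4 and 24.3 CPM in deep scKO. These did not overlap either (log2 fold change -0.72, SE 0.13; edgeR adjusted p = 0.00327).

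In shallow libraries Ckap2 ran from 29.2 through 33.2 to 80.7 CPM in control and from 19.7 through 35.9 to 44.9 CPM in scKO, with only 1 of 6 scKO libraries below the control median (log2 fold change -0.25, SE 0.26; edgeR adjusted p = 0.878). Ckap2l ran from 7.19 through 16.8 to 20.9 CPM in shallow controls and from 3.88 through 4.8 to 14.6 CPM in shallow scKO, on 3 to 15 counts in control and 2 to 8 in scKO. All 6 scKO libraries lay below the control median and 4 lay below every control, on counts near the floor that kept the gene out of the shallow test. Exons of Ckap2l overlap those of the antisense gene Gm14024, which held 9 counts over all libraries.

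Stmn1, which holds tubulin dimers and is switched off by phosphorylation in mitosis, was at 171.5 and 143.2 CPM in deep controls and at 110.7, 107.9 and 106.4 CPM in deep scKO. The 3 scKO libraries were almost equal and below both controls (log2 fold change -0.55, SE 0.09; edgeR adjusted p = 0.00224). In shallow libraries it ran from 184.1 through 256 to 608.8 CPM in control and from 142.2 through 185 to 518.2 CPM in scKO (log2 fold change -0.65, SE 0.36; edgeR adjusted p = 0.822). The 4 libraries that stood apart, 3 control and 1 scKO, were the 4 highest of the 13 shallow libraries, at 433.8 to 608.8 CPM. The other shallow controls held 184.1 to 256 CPM and the other shallow scKO libraries 142.2 to 199.8 CPM, and without the 4 the shallow log2 fold change was -0.38 (SE 0.16, adjusted p = 0.513 by edgeR).

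**Figure D3:**
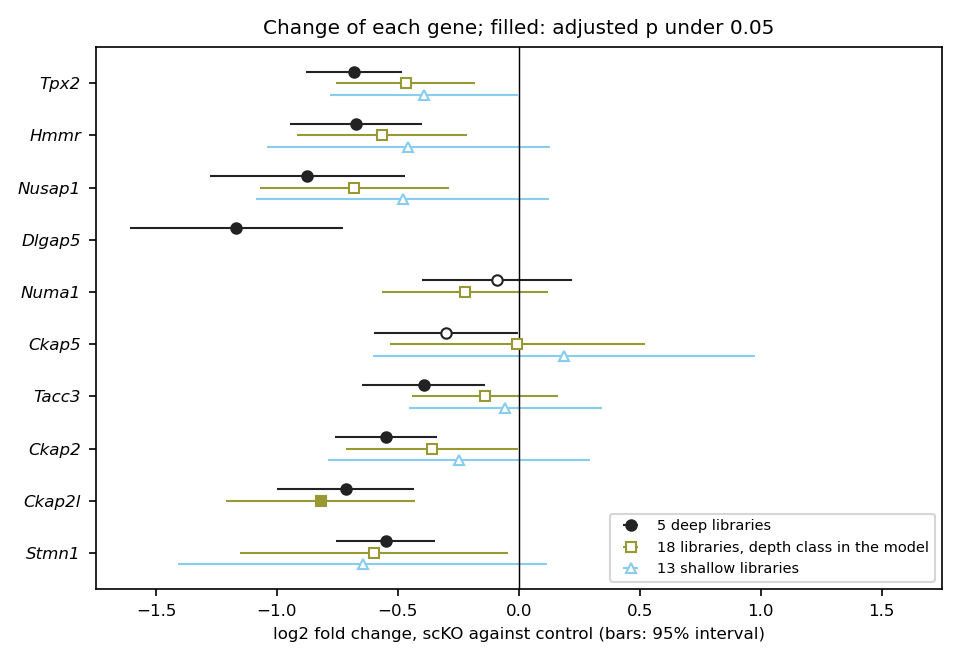
Log2 fold change of scKO against control (horizontal axis) for each gene, with 95% intervals, in the 5 deep libraries (circles), in all 18 with the depth class in the model (squares) and in the 13 shallow libraries (triangles); filled symbols passed edgeR at an adjusted p of 0.05. Filled circles stand at 8 of 10 genes, a single filled square at Ckap2l, and no triangle is filled; genes that did not pass the count filter of a fit have no symbol for it.

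In the shallow libraries alone 0 of the 7 genes that passed the filter were called by edgeR, where 0.0145% of 6906 genes were called lower. At an unadjusted p under 0.05 there was 1 of 7, Tpx2, against 6.15% of all genes tested, and DESeq2 and limma-voom called 0. Of all 10 genes, 0 were without overlap between the shallow groups, against 0.101% of all genes tested. Fold changes were below 0 for 6 of the 7, and for 54.2% of all genes tested there. With all 18 libraries and the depth class in the model, 1 of the 9 genes tested fell, Ckap2l (log2 fold change -0.82, SE 0.19; edgeR adjusted p = 0.0434), against 0.352% of 7662 genes called lower, and values were below 0 for 9 of the 9 and for 51.6% of genes. That call was lost without any 1 of control 1, 2, 3, 4, 5, 6 or 9 or scKO 3, 5, 6, 7, 8 or 9 (edgeR adjusted p = 0.0515 to 0.174). It was also lost with a filter of at least 10 counts in 9 libraries (edgeR adjusted p = 0.0511). The same held without the depth class in the model (log2 fold change -0.57, edgeR adjusted p = 0.918). With the replicate number as a block in the model it was lost too (log2 fold change -0.88, edgeR adjusted p = 0.158). Without the 4 libraries that stood apart 5 of the 9 fell, Tpx2, Hmmr, Nusap1, Ckap2l and Stmn1, against 4.09% of 8464 genes, with log2 fold changes of -0.55, -0.66, -0.72, -0.79 and -0.45. Single libraries moved the count of members too: it was 2 without control 7, where 0.647% of all genes were called lower, and 4 without scKO 1, where 1.54% were.

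Whether the change itself differed between deep and shallow libraries was tested with an interaction term. EdgeR called 0 of 9 genes and 0% of 7662 genes, and 0 of the 9 had an unadjusted p under 0.05. The smallest unadjusted p among the 9 was 0.276, and 473 of all genes had one under 0.05. The intervals were wide: for Tpx2 the deep change differed from the shallow one by -0.29 log2 units with a 95% interval from -0.91 to 0.33, and for Stmn1, the widest, by 0.09 with an interval from -1.18 to 1.36. A call in deep and not in shallow libraries is therefore not shown to be a difference between them.

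**Figure D4:**
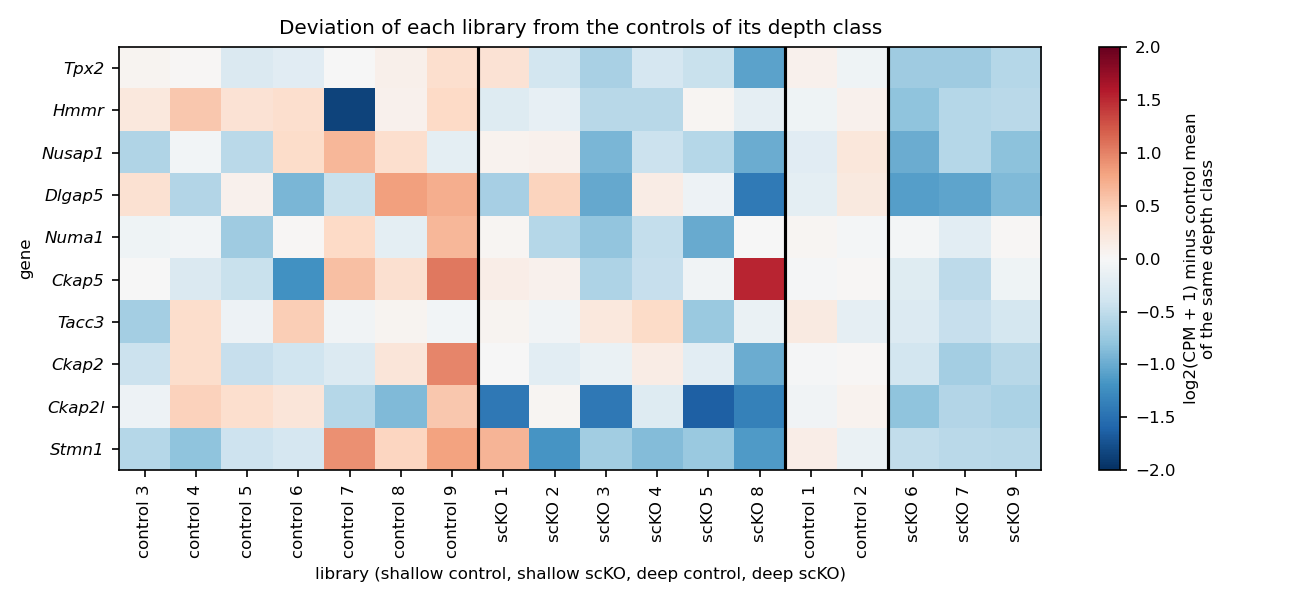
Heat map of log2(CPM + 1) of each gene (rows) in each of the 18 libraries (columns, grouped by depth class and group with black lines between) minus the control mean of the same depth class; blue is lower and red higher, in log2 units from -2 to 2. The 3 deep scKO columns are blue for nearly every gene, the shallow scKO columns are mixed, and Stmn1 is red in control 7, 8 and 9 and in scKO 1.

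Library by library, on log2(CPM + 1), scKO 6 and 7 had all 10 genes below the mean of the deep controls and scKO 9 had 9, with median deviations of -0.60, -0.57 and -0.55 log2 units. Among shallow scKO libraries the number below the shallow control mean was 4 in scKO 1, 6 in scKO 2, 9 in scKO 3, 7 in scKO 4, 9 in scKO 5 and 9 in scKO 8. The median deviations there ran from -0.99 in scKO 8 to 0.04 in scKO 1, so by this measure the shallow scKO libraries were more spread than the deep ones. Shallow libraries hold few counts of several genes, such as 2 to 8 of Dlgap5 in shallow and 41 to 47 in deep scKO. Counting error therefore enters that spread, and its part was not tested.

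Once group and depth class were taken out, the genes were compared between libraries by correlation, as a description. Over the 18 libraries, which share these 2 factors and differ in depth, the 36 pairs of the 9 genes tested had a median Pearson r of 0.16, and 26 pairs were above 0. The shallow libraries hold few counts of several of these genes, so counting error enters these values, and no such value was computed for other gene lists. The mean of the 9 had r = 0.66 with the mean of 16 proliferation markers. Tpx2 and Ckap2 went together most (r = 0.68), and Hmmr and Stmn1 least (r = -0.45). The 5 other genes closest to the mean of the members by the same measure were Prpf8, a spliceosome protein, Pan3, Tle1, Melk, a kinase, and Tgs1, with r from 0.85 to 0.89. Melk had a log2 fold change of -0.65 (SE 0.19, adjusted p = 0.11 by edgeR), and the other 4 had values from -0.10 to 0.04.

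The level of a gene in deep against shallow libraries also set the members apart from each other. With group taken into account, Ckap2 stood 1.97 log2 units higher in deep libraries, Hmmr 0.86 and Numa1 0.62. Tacc3 stood -1.35 and Stmn1 -1.12 log2 units from its shallow level, and Tpx2, Nusap1 and Ckap5 between -0.28 and 0.01. Over all 7662 genes the 5th and 95th percentiles were -1.38 and 1.30. Ckap2 and Ckap2l lay above the 95th percentile, and levels of these genes are compared only within a depth class.

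Other genes that act with these proteins were counted by list, beside 7.03% of all genes called lower and 7.31% called higher in deep libraries. Of 10 genes of the Ran cycle and Aurora A tested in deep libraries, 7 fell and 0 rose, with a median log2 fold change of -0.39. Aurka, the kinase that Tpx2 activates, went from 101 ± 0.261 CPM (SD, n = 2) in deep control to 52.9 ± 5.19 CPM (SD, n = 3) in deep scKO (log2 fold change -0.95, SE 0.11; edgeR adjusted p = 0.000217). Ranbp1, a cofactor of the Ran cycle, went from 270.4 ± 4.48 CPM (SD, n = 2) to 177.5 ± 7.7 CPM (SD, n = 3) (log2 fold change -0.62; edgeR adjusted p = 0.000909). With the depth class over all 18 libraries neither passed (edgeR adjusted p = 0.0602 and 0.15).

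Genes of microtubule nucleation were counted in the same way. Of 21 genes of the gamma-tubulin ring, its recruitment and the augmin complex tested in deep libraries, 3 fell (Haus3, Haus4 and Haus6, subunits of augmin, the first pair named after their values were seen) and 0 rose, with a median of -0.25. Haus6 had a log2 fold change of -0.67 (SE 0.16, adjusted p = 0.0128 by edgeR), and Mzt1, a small subunit of the ring, 0.29 (SE 0.16, adjusted p = 0.26 by edgeR). Of 13 genes of the spindle pole and cell cortex 5 fell and 0 rose, with a median of -0.14. Knstrn, a partner of Spag5 at kinetochores and poles, fell in deep libraries (log2 fold change -0.75; edgeR adjusted p = 0.000891) and with the depth class over all 18 (-0.60; edgeR adjusted p = 0.0138). The latter call was lost without control 1, control 2 or scKO 6 (edgeR adjusted p = 0.067, 0.0789 and 0.0543) and without the depth class in the model (0.109). The others, named after their values were seen, were Aspm, Spag5, Gnai1 and Nde1.

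Most other microtubule genes did not pass, as was so for most of all genes, of which 7.03% were called lower and 7.31% higher in deep libraries. Of 14 plus-end and lattice binding genes tested in deep libraries 0 fell and 1 rose, Slain2, a partner of Ckap5 at growing ends, with a log2 fold change of 0.36 (SE 0.09, adjusted p = 0.0155 by edgeR), and the median of the list was 0.20. Mapre2 had -0.37 (edgeR adjusted p = 0.225). Of 9 tubulins tested 1 fell, Tuba1c, from 66.4 ± 2.42 CPM (SD, n = 2) to 39.2 ± 4.21 CPM (SD, n = 3) (log2 fold change -0.78; edgeR adjusted p = 0.000917), and the median was -0.02; alpha-tubulin genes resemble each other closely, so that count is uncertain. Tubb2a had 0.14 (edgeR adjusted p = 0.523). Of 7 stathmin relatives and severing enzymes 2 fell: Fignl1, which also acts in DNA repair (log2 fold change -0.70; edgeR adjusted p = 0.00187), and Stmn2, the neuronal stathmin, named after its value was seen (-1.65; edgeR adjusted p = 0.000296). Fignl1 fell with the depth class as well (-0.84; edgeR adjusted p = 0.00515), also without any 1 library, but not without the depth class in the model (edgeR adjusted p = 0.935).

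**Figure D5:**
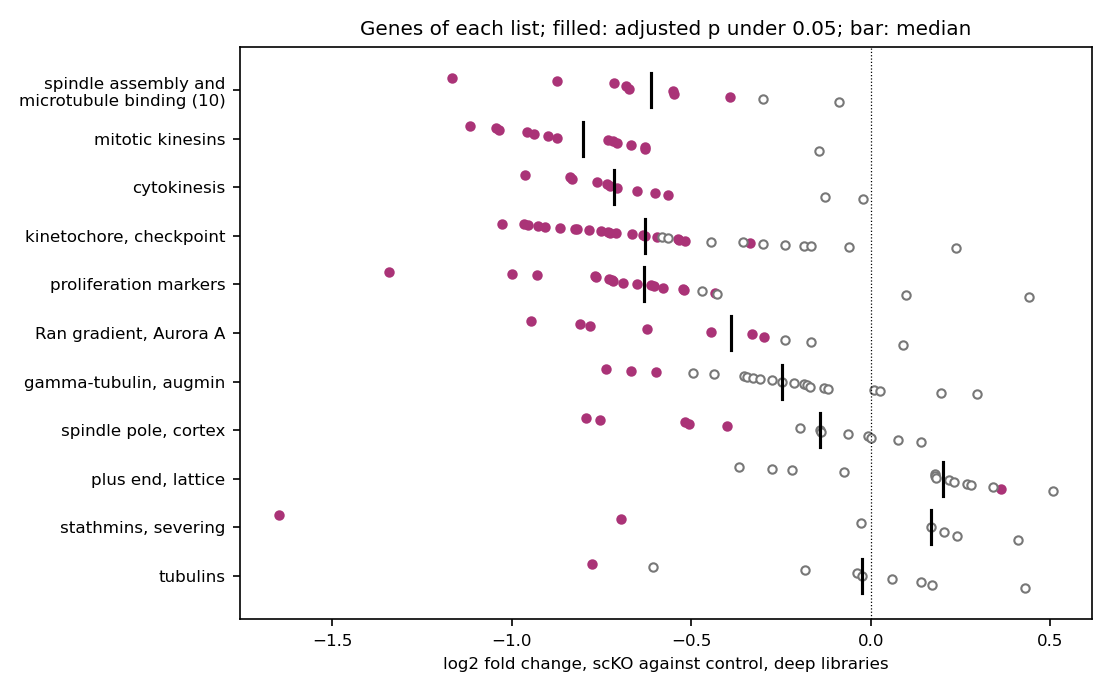
Log2 fold change in the deep libraries (horizontal axis) of every tested gene in the list of 10 and in 10 other lists, 1 point per gene, filled where edgeR called it, with a bar at the median of each list. The medians of the 10 genes and of the kinesin, cytokinesis, kinetochore and proliferation lists lie farthest left, that of the tubulins is near 0, and those of the plus-end and stathmin lists lie right of 0.

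Markers of proliferating cells fell in the deep libraries too, where 7.03% of all genes were called lower and 7.31% higher. Of 20 tested in deep libraries 16 fell and 0 rose, with a median of -0.63, among them Mybl2 (B-Myb, -1.34), Foxm1 (-0.65), Ccnb1 (-0.72) and Cdk1 (-0.58), these 4 named after their values were seen. Mcm5 and Tyms, of DNA replication and thymidylate synthesis, fell in deep libraries by 0.93 and 1.00 on the log2 scale (edgeR adjusted p = 0.000388 and 0.00193) and with the depth class (edgeR adjusted p = 0.0434 and 0.0402). With the depth class, the call of Mcm5 was lost without any 1 of control 1, 2, 3, 5 or 9 or scKO 2, 3, 5, 6, 7, 8 or 9 (edgeR adjusted p = 0.0572 to 0.18), and that of Tyms without scKO 2, 3, 5, 7 or 8 (0.0528 to 0.145). Tyms passed the count filter in 13 of the 18 fits that leave out 1 library. Without the depth class in the model neither passed (edgeR adjusted p = 0.798 and 0.385). With a filter of at least 10 counts in 9 libraries the call of Mcm5 was lost (edgeR adjusted p = 0.0511), and Tyms did not pass that filter. Mki67 had -0.47 (SE 0.27, adjusted p = 0.288 by edgeR). The part that a change in the share of dividing cells has in the fall of the 10 genes was not tested.

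Other mitotic lists are given beside the 10 genes. In deep libraries 13 of 14 mitotic kinesins fell, with a median log2 fold change of -0.80, as did 10 of 12 cytokinesis genes, with a median of -0.72, and 21 of 31 kinetochore and checkpoint genes, with a median of -0.63, beside 8 of 10 and -0.61 here. Of all genes tested in deep libraries 7.03% were called lower. In shallow libraries 0 genes of the 3 lists were called, where 0.0145% of all genes tested were called lower. With the depth class 3 of 10 kinesins, 3 of 21 kinetochore genes and 1 of 11 cytokinesis genes fell, beside 0.352% of all genes tested. No test compared the lists.

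The 10 genes lie on 7 chromosomes, 4 of them on chromosome 2 (Ckap5 from 91526762 to 91620664, Nusap1 from 119618298 to 119651244, Ckap2l from 129268210 to 129297212 and Tpx2 from 152847964 to 152895321 in GRCm38). The others are Tacc3 (chromosome 5, 33658128 to 33678995), Numa1 (7, 101934111 to 102014964), Ckap2 (8, 22168160 to 22185819), Hmmr (11, 40701395 to 40733422), Dlgap5 (14, 47387779 to 47418407) and Stmn1 (4, 134468320 to 134473843). Each is annotated as protein-coding. Of the 4 on chromosome 2, Ckap5 was the one not called in deep libraries.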

How the data were processed

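RNA of 18 libraries (9 control, 9 scKO) was analysed from 1 table of raw UMI counts per gene, deposited by the authors. Per the submitters' processing notes the tools were HISAT2 and HTSeq, without versions, and the build was the rat Rnor_6.0, although the identifiers are mouse Ensembl genes; the UMI length, the annotation and the use of strand are not given in the sources used here. Totals ran from 420197 to 5986128 counts, and 3 counts, the floor, are worth 0.501 to 7.14 CPM before TMM scaling. Symbols and positions came from GENCODE M21 (GRCm38); features without a symbol held 0.0410% of counts.

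Genes were filtered with filterByExpr, scaled by TMM and tested with the quasi-likelihood test of edgeR 4.0.16 (robust, R 4.3.3) in deep libraries, in shallow libraries and in all 18 with the depth class, with Benjamini-Hochberg adjustment over all genes of a fit and a threshold of 0.05. Standard errors are the fold change divided by the root of the F statistic. DESeq2 1.42.0 and limma-voom 3.58.1 were alternatives, as were other scaling, filters, collision-corrected counts, left-out libraries and the replicate number as a block. Fits were tested on simulated data.

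The members and lists were chosen with earlier results of these data known. Named were all 10 members, of each pathway list up to 5 genes with the smallest p among those called with the depth class or otherwise the 2 with the smallest p, the 5 genes most like the members, and Hoxa10. No sequences of the proteins were used here.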

Additional observations from a re-analysis of the deposited data

Results flagged for a closer look

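Among 22 groups of 6 or 7 shallow libraries, 1 group for each gene and genotype, 3 held a library far from its group; chance alone flags about 1 in 20 such groups. Hmmr stood at 5.53 CPM in control 7, on 3 counts, against a group median of 27.8 CPM and a next value of 24 CPM. Ckap5 stood at 95.4 CPM in scKO 8, on 58 counts, against a median of 32.8 CPM and a next value of 35.7 CPM. Stmn1 stood at 518 CPM in scKO 1, on 334 counts, against a median of 185 CPM and a next value of 200 CPM. Control 7 and scKO 1 belong to the 4 libraries that stood apart, and scKO 8 does not.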

How the results depend on the processing

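In the deep libraries 8 of 10 genes fell under the main settings and under each of 6 other scalings, filters, tools and corrections. Over these settings the genes called lower ran from 632 of 13136 with DESeq2 to 1074 of 23614 with no filter. Without scKO 6, 7 or 9, 7 of the 10 fell, beside 761, 474 and 674 of all genes. Fits without control 1 or 2 leave 1 control, which is assumed to vary like the scKO libraries. Of 110 values of single genes in deep libraries 105 kept direction and call and 5 lost the call (Tacc3 in 4, Nusap1 in 1). Collision correction moved the deep change of Tacc3 from -0.39 to -0.50. In shallow libraries 0 of the members were called under any setting. Over 18 libraries with the depth class, the members called went from 1 to 0 without the depth class, with a filter of at least 10 counts in 9 libraries and with the replicate block, and to 4 with no filter, 4 with DESeq2 and 5 without the 4 libraries that stood apart; leaving out 1 library gave 0 to 4. All genes called, lower or higher, went from 52 to 1 without the depth class, 22 with that filter and 359 with no filter. They were 390 with DESeq2, 100 with limma-voom and 617 without the 4 libraries, and 11 to 216 without 1 library. Genes called lower, as the members were counted, were 27 of 7662 in the main fit and 1 of 7662 without the depth class. They were 11 of 7696 with that filter, 195 of 24176 with no filter and 225 of 7662 with DESeq2. With limma-voom they were 51 of 7662, with the replicate block 6 of 7662 and without the 4 libraries 346 of 8464. Ckap5, at -0.01, was 0.025 without the depth class, 0.023 with DESeq2 and 0.087 without the 4 libraries, and -0.27 to 0.069 without 1 library; within shallow libraries it was -0.27 to 0.38 without 1 library and 0.72 without the 4. Tacc3 within shallow libraries was -0.14 to 0.064 without 1 library. The change of Hoxa10 ran from -2.96 to -2.32 and kept its call. The cause of these differences between settings was not tested.

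With the replicate number as a block, 14 genes were called over 18 libraries, 0 of them members, and Tacc3 in shallow libraries was 0.028. Of 9 pairs of equal number 6 correlated above 0.1 (-0.13 to 0.40), and 3 scKO libraries were closest to their own number. No baseline from pairs of unequal number was computed, so these values do not decide whether equal numbers pair the samples. The labels do not tie equal numbers together, and deep libraries share none between groups. Knstrn, Fignl1, Mcm5 and Tyms, called with the depth class, also lost their calls with the block (edgeR adjusted p = 0.0816, 0.0612, 0.0701 and 0.153); these 4 were added after seeing the data. Dlgap5, Numa1 and Ckap2l did not pass the main count filter in shallow libraries, where their counts were low.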
